A study of Mus musculus with 18 samples.

Results

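The genes described here are 35 type I interferon-stimulated genes, taken from a list of symbols, and 32 of them had at least 1 probe annotated to that symbol alone, among 22180 genes measured in this way. Oas1a shared its probe with Oas1g, Gbp2 shared its probe with Gbp2b, and Ifi44 was not analysed here. Expression was measured on 18 Affymetrix mouse arrays hybridised with RNA from phagocytes of the small intestine. All cells came from VDTR mice of both sexes, a line that expresses a fusion of the diphtheria toxin receptor and green fluorescent protein (GFP) from the villin promoter of intestinal epithelium, so a phagocyte with GFP is taken to hold epithelial material. Per the labels, every animal was given 2 ng per kg of the toxin by intraperitoneal injection and was killed after 4 hours, and no group without toxin was analysed here.

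Live CD45+ CD11c+ MHCII+ cells were sorted into 3 populations, and each was divided by GFP, which gives 6 groups of 3 arrays. The CD103 dendritic cells (DCs) were CD103+ CD24+. One macrophage population was CD103+ CD11b+ CD64+ and the other CD11b+ CD64+. The labels give no age. Nor do they tie the 3 replicates to separate animals, so a p-value here reflects the spread between samples, which may be technical. The labels' "n value" of 4 is not explained in the sources used here. In sorted bulk samples of this kind, fewer cells that express a gene and less RNA per cell cannot be told apart.

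Type I interferons bind a receptor made of IFNAR1 and IFNAR2, and the kinases JAK1 and TYK2 then phosphorylate transcription factors such as STAT2. STAT2 joins IRF9 in a complex that binds the interferon-stimulated response element in the promoters of antiviral genes, and IRF3 and IRF7 can act on the same element after nucleic acid is sensed. Some of the genes, such as Irf1, Cxcl9 and the guanylate-binding proteins, also answer strongly to interferon gamma. In the intestine, CD103 DCs are known for carrying antigen to lymph nodes, and macrophages for clearing dying cells in place.

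Promoter sequences are shown because a part of these genes hold the core of the response element. They were taken from RefSeq for build GRCm38.p6, and 24 of the 32 measured genes had an entry. The core of the response element was searched as GAAANNGAAA on both strands within 250 bases before the start, and capitals mark its matches, which may overlap one another. It is written TTTCNNTTTC where it lies on the other strand. The first 5 sequences belong to genes that were lower in DCs than in a macrophage population, and the last 2 to genes that were not, in the average over both GFP gates.
Isg15: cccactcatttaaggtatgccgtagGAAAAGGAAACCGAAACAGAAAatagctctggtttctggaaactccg
Cxcl10: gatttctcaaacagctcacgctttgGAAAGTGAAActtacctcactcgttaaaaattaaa
Gbp3: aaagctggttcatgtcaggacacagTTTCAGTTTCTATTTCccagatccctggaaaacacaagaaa
Rsad2: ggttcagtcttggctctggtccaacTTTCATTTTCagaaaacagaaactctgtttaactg
Bst2: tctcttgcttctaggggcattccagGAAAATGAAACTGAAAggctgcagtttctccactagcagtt
Ifit1: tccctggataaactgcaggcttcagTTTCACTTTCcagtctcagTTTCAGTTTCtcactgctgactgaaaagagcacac
Stat2: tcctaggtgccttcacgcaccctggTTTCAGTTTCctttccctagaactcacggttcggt

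The Isg15 stretch is chr4:156200850-156200921 on the minus strand and holds 3 overlapping matches, from 78 to 57 bases before the start. The Cxcl10 stretch is chr5:92349068-92349127 on the minus strand, and its single match begins 213 bases before the start. The Gbp3 stretch is chr3:142559974-142560039 on the plus strand, with 2 overlapping matches. The Rsad2 stretch is chr12:26456538-26456597 on the minus strand, and the Bst2 stretch is chr8:71537562-71537627 on the minus strand. The Ifit1 stretch is chr19:34640760-34640838 on the plus strand and holds 2 separate matches. The Stat2 stretch is chr10:128270251-128270310 on the plus strand.

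The motif was present in a promoter of 936 of the 27025 genes in RefSeq (3.46%) and of 11 of the 24 interferon-stimulated genes with an entry. Of the 10 entries of genes lower in DCs, 7 held it: Isg15, Cxcl10, Gbp3, Rsad2, Bst2, Ddx60 and Oas3. Of the 14 other entries 4 held it: Ifit1, Ifit3, Stat2 and Trim30a. Oasl2, Ifit2 and Xaf1, also lower in DCs, each had an entry without these letters. Oas2, Rtp4, Parp14, Dhx58 and Zbp1, also lower in DCs than in a macrophage population, had no entry. A second motif searched in the same window, TTCNNNGAA, was in 2 of the 10 entries and 3 of the 14, and in 8.13% of all genes. Whether either motif goes with lower values in DCs was not tested. These matches are letters in a window and do not show that a factor binds there.

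Values are log2 and centred on each probe's own median over the 18 arrays, so they compare groups for 1 gene and give no level of 1 gene against another. A difference was counted as passing at a limma p-value adjusted by Benjamini-Hochberg over 22180 genes under 0.05. The median over the 32 genes ran from -1.21 to -0.05 on the 6 DC arrays, from -0.12 to 0.38 on the 6 arrays of CD103 CD11b CD64 macrophages and from -0.06 to 0.38 on those of CD11b CD64 macrophages. Column medians over all probes lay between -0.0377 and 0.0494. Interquartile ranges lay between 0.2557 and 0.5784 and were widest in GFP-plus DC replicate 1, which also had the lowest median of the 32 genes. Estimated array weights ran from 0.352 to 2.52, and the lowest 4 were those of GFP-plus CD103 CD11b CD64 macrophage replicate 1, GFP-plus DC replicate 1, GFP-minus CD103 CD11b CD64 macrophage replicate 2 and GFP-minus CD11b CD64 macrophage replicate 1.

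**Figure D1:**
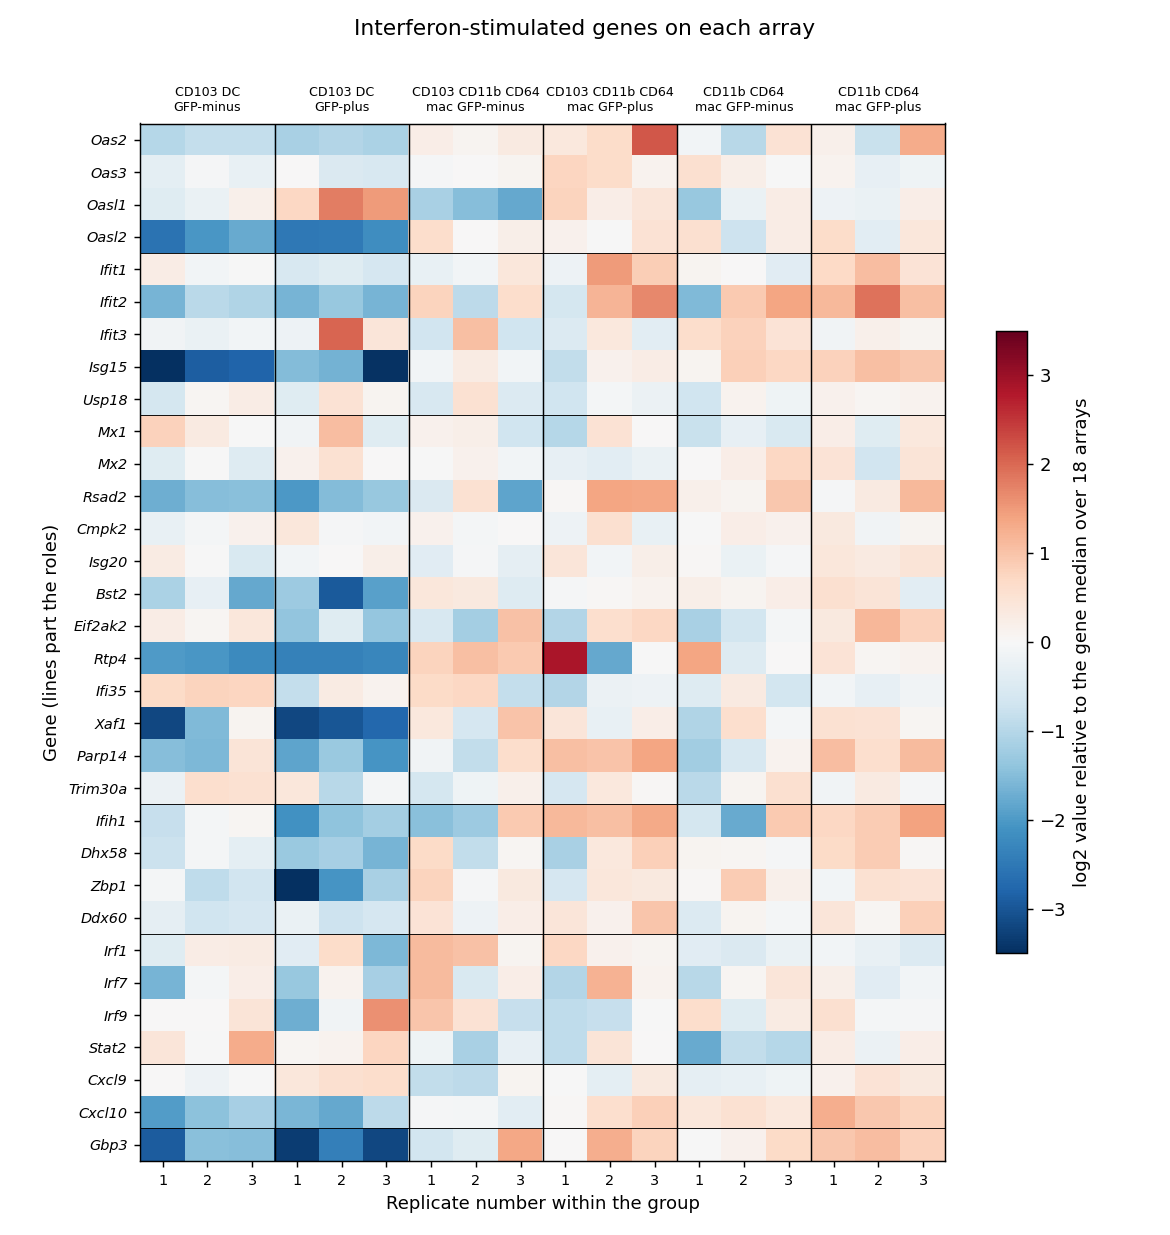
Colours give the log2 value of each of the 32 genes (rows, by role) on each of the 18 arrays (columns, by group), relative to that gene's median, with the scale ending at its darkest colours. Isg15, Oasl2, Rtp4, Xaf1 and Gbp3 are the darkest rows on the DC arrays, with means of -2.82, -2.26, -2.21, -2.26 and -2.47 over 6 arrays, while Usp18, Cmpk2 and Isg20 show little contrast between groups.

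The first comparison asked how DCs and macrophages of the same tissue differ in these genes. CD103 DCs held less RNA for a part of the interferon-stimulated genes than either macrophage population, averaged over both GFP gates. Isg15, the ubiquitin-like modifier, was 6.78-fold lower than in CD103 CD11b CD64 macrophages and 11.8-fold lower than in CD11b CD64 macrophages. Gbp3, a guanylate-binding protein gene, was 7.26-fold and 8.42-fold lower, Oasl2 was 5.65-fold and 5.22-fold lower, and the chemokine gene Cxcl10 was 3.11-fold and 4.57-fold lower. Oasl1 was 2.11-fold higher in DCs than in the macrophages with CD103, and Stat2 was 2.00-fold higher than in those without. Both comparisons use the same 6 DC arrays.

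Against CD103 CD11b CD64 macrophages, 14 of 32 genes were lower in DCs, where 5.33% of all genes tested were, and 1 was higher, where 2.6% of all genes were. Against CD11b CD64 macrophages, 13 were lower, with 5.94% of all genes, and 1 was higher, with 2.17%. In limma, 12 genes were lower than both, where 4.18% of all genes were, none was higher than both, where 1.73% of all genes were, and 15 passed in neither comparison. The median log2 difference of the 32 genes was -0.78 against the macrophages with CD103 and -0.53 against those without, beside -0.02 and -0.03 over all genes. The difference was below 0 in 21 and 24 of the 32 genes, beside 54.5% and 55.3% of all genes. All 6 DC arrays lay below all 6 macrophage arrays in 8 genes against the macrophages with CD103, where 2.72% of all genes did so, and in 7 genes against those without, where 3.64% did.

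The oligoadenylate synthetases sense double-stranded RNA and make the second messenger that activates RNase L, and the OAS-like protein OASL1 lacks that activity. Oasl2 values were -2.58, -2.03 and -1.77 in GFP-minus DCs and -2.51, -2.48 and -2.17 in GFP-plus DCs. The 6 arrays of CD103 CD11b CD64 macrophages had a lowest value of -0.02, a median of 0.17 and a highest of 0.61, and those of CD11b CD64 macrophages had -0.71, 0.34 and 0.64. No DC array reached the lowest macrophage array. The difference was -2.50 ± 0.23 (SE) against the macrophages with CD103 (limma adjusted p = 4.01e-06) and -2.39 ± 0.23 against those without (6.25e-06).

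Oas2 was even across DCs and uneven across macrophages. Its 6 DC values had a lowest of -1.15, a median of -1.01 and a highest of -0.84, and those of CD103 CD11b CD64 macrophages had 0.10, 0.35 and 2.18. DCs and these macrophages did not overlap, and the difference was -1.64 ± 0.35 (SE, limma adjusted p = 0.00859). The CD11b CD64 macrophages ran from -0.96 to 1.31 and reached into the DC range, and the difference of -1.02 did not pass (limma adjusted p = 0.108). Oas3 differed by -0.54 ± 0.14 from the macrophages with CD103 (limma adjusted p = 0.0285), with overlapping arrays. With quantile normalization neither call held, at limma adjusted p = 0.0872 for Oas2 and 0.063 for Oas3. Oas3 also missed the threshold when only the arrays of these 2 populations were fitted (0.056) and without any 1 of 8 arrays, at 0.0525 to 0.0727.

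Oasl1, whose product is known for restraining translation of Irf7 RNA, stood apart from the other 3 synthetase genes in direction. Its values were -0.43, -0.24 and 0.19 in GFP-minus DCs and 0.73, 1.80 and 1.48 in GFP-plus DCs. In CD103 CD11b CD64 macrophages they were -1.12, -1.50 and -1.78 without GFP and 0.79, 0.24 and 0.43 with it. Every GFP-plus array of these 2 populations lay above every GFP-minus array of its own population. Averaged over the gates, DCs were higher by 1.08 ± 0.26 than these macrophages (SE, limma adjusted p = 0.0154). In neither gate did this difference pass, at 1.31 within the GFP-minus gate (limma adjusted p = 0.0656) and 0.85 within the GFP-plus gate (0.212). The difference of 0.84 from the CD11b CD64 macrophages did not pass (limma adjusted p = 0.0622). The probe shared by Oas1a and Oas1g, which was not tested, ran from -1.95 to -0.55 on DC arrays and from -0.45 to 1.23 on macrophage arrays, and these sets did not overlap.

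Among the IFIT and ISG15 genes, Isg15 and Ifit2 were lower in DCs, and Ifit1, Ifit3 and Usp18 did not pass. Isg15 encodes the modifier that is joined to proteins during the antiviral response. Its values were -4.61, -2.89 and -2.81 in GFP-minus DCs and -1.50, -1.66 and -3.47 in GFP-plus DCs. The 6 arrays of CD103 CD11b CD64 macrophages had a lowest value of -0.86, a median of 0.02 and a highest of 0.29, and those of CD11b CD64 macrophages had 0.10, 0.82 and 1.05. Every DC array was below every macrophage array, although the DC arrays themselves were widely spread. The difference was -2.76 ± 0.37 (SE, limma adjusted p = 0.000154) against the macrophages with CD103 and -3.57 ± 0.37 (1.05e-05) against those without.

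Ifit2 encodes a protein that binds viral RNA. It had a lowest value of -1.62, a median of -1.47 and a highest of -0.93 on DC arrays, against -0.91, 0.70 and 1.68 in CD103 CD11b CD64 macrophages and -1.54, 1.10 and 1.90 in CD11b CD64 macrophages. The DC arrays were all low, and 1 array of each GFP-minus macrophage group was as low or nearly so. The differences were -1.82 ± 0.50 (SE, limma adjusted p = 0.0362) and -2.17 ± 0.50 (0.012), and the first did not hold without shrinkage of the variances (limma adjusted p = 0.0683) or with quantile normalization (0.0536), nor without any 1 of 11 arrays, at 0.0503 to 0.0951. Usp18, which removes ISG15 from proteins, differed by 0.23 and 0.05 and did not pass.

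**Figure D2:**
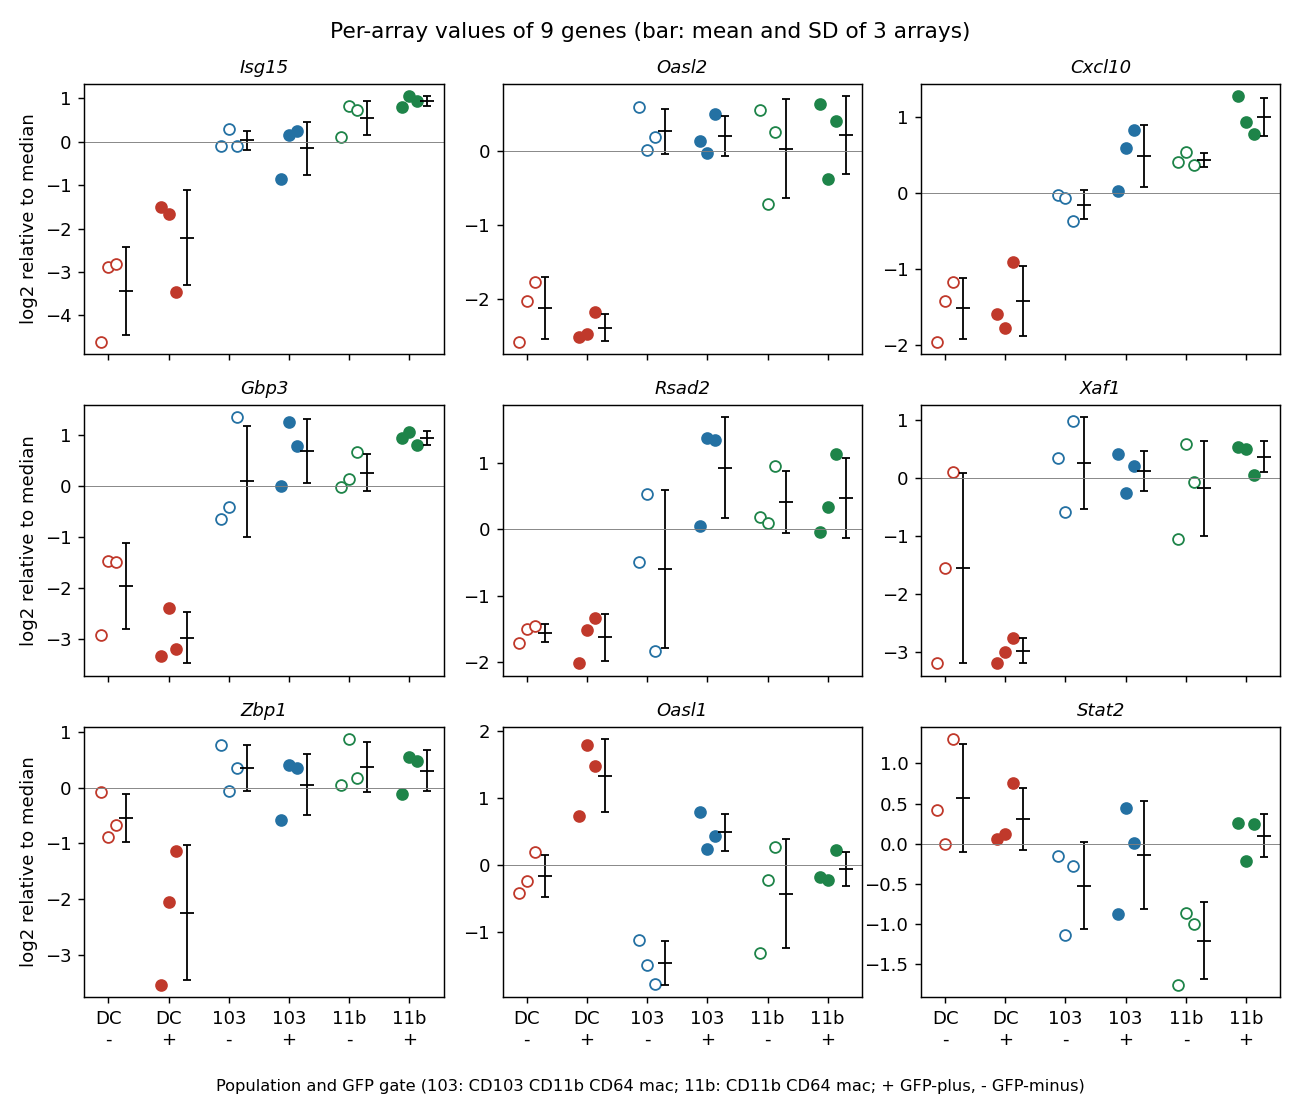
Each panel shows the log2 values of 1 gene on the 18 arrays, with open points for GFP-minus and filled points for GFP-plus cells, and bars for the mean and SD of 3 arrays. In Isg15, Oasl2, Cxcl10 and Gbp3 the DC points lie below all macrophage points, in Zbp1 and Xaf1 they spread from -3.54 and -3.18 up to -0.07 and 0.10, and in Oasl1 the filled points lie above the open points in DCs and in CD103 CD11b CD64 macrophages.

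Of the 12 measured antiviral effectors, the same 5 were lower in DCs in both comparisons: Rsad2, Bst2, Rtp4, Xaf1 and Parp14. Rsad2 encodes viperin, which makes a chain-terminating nucleotide. Its DC values had a lowest of -2.02, a median of -1.51 and a highest of -1.34, against -1.84, 0.28 and 1.38 in CD103 CD11b CD64 macrophages and -0.04, 0.26 and 1.14 in CD11b CD64 macrophages. DCs were low throughout, and a single macrophage array, GFP-minus replicate 3 of the population with CD103, lay among them. The differences were -1.75 ± 0.36 (SE, limma adjusted p = 0.00645) and -2.03 ± 0.36 (0.00187). With quantile normalization the first was -1.16 and did not pass (limma adjusted p = 0.181).

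Bst2 encodes tetherin, which holds budding virus at the cell surface, and is also used as a marker of plasmacytoid DCs. Its DC values ran from -2.93 through a median of -1.53 to -0.29, and the 12 macrophage values lay between -0.46 and 0.56. A single DC array, GFP-minus replicate 2, reached the macrophage range. The differences were -1.62 ± 0.29 (SE, limma adjusted p = 0.0024) and -1.74 ± 0.29 (0.00121). Of the 8 measured plasmacytoid DC markers, Bst2 included, 2 were lower in DCs in each comparison, where 5.33% and 5.94% of all genes were. The other was the transcription factor gene Tcf4 (-2.10 and -1.62). Ly6d was higher in DCs than in CD11b CD64 macrophages (0.60), where 2.17% of all genes were, and 3 of the 8 differences were above 0 in each comparison. The part of these markers in the result was not tested.

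Rtp4 was even across DCs and uneven in 1 macrophage group. Its DC values lay between -2.37 and -1.99, while GFP-plus CD103 CD11b CD64 macrophages gave 2.85, -1.78 and -0.01. The arrays of DCs and of either macrophage population did not overlap. The differences were -2.85 ± 0.56 (SE, limma adjusted p = 0.0042) and -2.48 ± 0.56 (0.0103), and with quantile normalization neither passed (limma adjusted p = 0.127 and 0.178).

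Xaf1, known for promoting cell death, was -3.18, -1.54 and 0.10 in GFP-minus DCs and -3.18, -3.01 and -2.75 in GFP-plus DCs. The GFP-plus arrays were uniformly low, and the GFP-minus arrays spanned the distance from them to the macrophages, whose 12 values lay between -1.04 and 1.00. The differences were -2.45 ± 0.45 (SE, limma adjusted p = 0.00267) and -2.36 ± 0.45 (0.00326). Parp14, an ADP-ribosyltransferase gene, differed by -1.81 ± 0.36 (SE, limma adjusted p = 0.00449) and -1.49 ± 0.36 (0.016). Its arrays overlapped in both comparisons, and with quantile normalization the second did not pass (limma adjusted p = 0.0506). Within the GFP-minus gate the Parp14 differences were -0.74 and -0.31 and did not pass (limma adjusted p = 0.616 and 0.896). Within the GFP-plus gate they were -2.88 and -2.66 (0.00211 and 0.0035).

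The other 7 effectors, Mx1, Mx2, Cmpk2, Isg20, Eif2ak2, Ifi35 and Trim30a, passed in neither comparison, with differences between -0.48 and 0.52. Mx1 and Mx2 encode dynamin-like GTPases that block viruses, and Eif2ak2 encodes the kinase PKR, which stops translation. The 2 probes of Ifi35 were averaged, and in GFP-plus CD103 CD11b CD64 macrophages they differed in level, at -0.83 ± 1.21 (SD, n = 3) and -0.12 ± 0.26.

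Of the nucleic acid sensors, Zbp1 and Ddx60 were lower in DCs in both comparisons and Dhx58 in 1. Zbp1 senses Z-form nucleic acid and can start necroptosis. Its DC values were -0.07, -0.89 and -0.67 without GFP and -3.54, -2.05 and -1.14 with it, and all 12 macrophage values lay between -0.58 and 0.88. The GFP-plus DCs were below every other array. The differences over both gates were -1.60 ± 0.34 (SE, limma adjusted p = 0.00844) and -1.73 ± 0.34 (0.00435). Ddx60, a helicase gene, differed by -0.88 ± 0.18 (SE, limma adjusted p = 0.00612) and -0.67 ± 0.18 (0.0337), from a DC range of -0.74 to -0.22. The second missed the threshold without shrinkage of the variances (limma adjusted p = 0.0531) and without any 1 of 8 arrays, at 0.0694 to 0.0948.

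Dhx58 encodes LGP2, a relative of the RNA sensor MDA5. Its DC values had a lowest of -1.63, a median of -0.95 and a highest of -0.07, against -0.05, 0.08 and 0.89 in CD11b CD64 macrophages. These sets only just parted, and the difference was -1.16 ± 0.31 (SE, limma adjusted p = 0.0334), with an adjusted p of 0.0599 under quantile normalization, 0.0612 without shrinkage of the variances and 0.0534 with the replicate number as a block. It also missed the threshold without any 1 of 9 arrays, at 0.0566 to 0.0853. Against the macrophages with CD103 it was -0.86 (limma adjusted p = 0.131). Ifih1, which encodes MDA5 itself, differed by -1.21 and -1.18 and did not pass (limma adjusted p = 0.141 and 0.148).

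Of the transcription factors of the pathway, only Stat2 passed. Irf1, Irf7 and Irf9 passed in neither comparison, with differences from -0.82 to 0.21. Stat2, whose product acts with IRF9, had DC values from -0.01 through a median of 0.27 to 1.31 and CD11b CD64 macrophage values from -1.76 through -0.54 to 0.26. The sets overlapped, with GFP-minus macrophages lowest. The difference was 1.00 ± 0.29 (SE, limma adjusted p = 0.0449), and it missed the threshold with array weights (limma adjusted p = 0.0665), without shrinkage of the variances (0.076) and without any 1 of 14 arrays, at 0.0505 to 0.11. Within the GFP-plus gate it was 0.21 (limma adjusted p = 0.824), and within the GFP-minus gate 1.78 (0.0223).

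Cxcl10 draws cells that carry the receptor CXCR3. Its values were -1.96, -1.43 and -1.17 in GFP-minus DCs and -1.60, -1.78 and -0.91 in GFP-plus DCs. They ran from -0.37 to 0.83 in CD103 CD11b CD64 macrophages and from 0.36 to 1.28 in CD11b CD64 macrophages. No array of DCs reached those of macrophages, and the differences were -1.64 ± 0.18 (SE, limma adjusted p = 2.68e-05) and -2.19 ± 0.18 (1.2e-06). Cxcl9, a ligand of the same receptor, differed by 0.52 and 0.19 and did not pass (limma adjusted p = 0.0712 and 0.62).

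Gbp3 was -2.93, -1.47 and -1.48 in GFP-minus DCs and -3.33, -2.40 and -3.20 in GFP-plus DCs. The arrays of CD103 CD11b CD64 macrophages ran from -0.64 to 1.35 and those of CD11b CD64 macrophages from -0.02 to 1.08. DC arrays lay below all of them, and the differences were -2.86 ± 0.36 (SE, limma adjusted p = 8.77e-05) and -3.07 ± 0.36 (3.97e-05). The probe shared by Gbp2 and Gbp2b, which was not tested, overlapped between DCs (-2.50 to -0.04) and macrophages (-2.41 to 1.67).

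Oasl2, Isg15, Cxcl10 and Gbp3 were lower in DCs than in both macrophage populations in each GFP gate taken alone, an analysis added after the data were seen. Within the GFP-minus gate these 4 were the genes lower than in CD103 CD11b CD64 macrophages, where 2.12% of all genes were lower, and none was higher, where 1.51% of all genes were. They were also the 4 lower than in CD11b CD64 macrophages, where 1.9% of all genes were, and Stat2 was higher there by 1.78, with 1.39% of all genes higher. Isg15 differed by -3.47 and -3.99 in this gate, Oasl2 by -2.40 and -2.16, Gbp3 by -2.06 and -2.23 and Cxcl10 by -1.36 and -1.96.

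Within the GFP-plus gate 14 genes were lower in DCs than in CD103 CD11b CD64 macrophages, where 5.18% of all genes were, and none was higher, where 1.73% of all genes were. Against CD11b CD64 macrophages 15 were lower, where 7.49% of all genes were, and Oasl1 was higher by 1.40, with 1.96% of all genes higher. In this gate Gbp3 differed by -3.66 and -3.92, Xaf1 by -3.11 and -3.35 and Isg15 by -2.06 and -3.14. Parp14 differed by -2.88 and -2.66 and the sensor gene Ifih1 by -2.74 and -2.58. Ifit1, which binds viral RNA lacking a host cap, passed in this gate (-1.24 and -1.27) and not in the average over gates. The median of the 32 genes was -1.10 and -1.12 in this gate and, in the GFP-minus gate, -0.32 against the macrophages with CD103. Whether the gates differ is the question of the F-test described with the GFP results, in which no gene of the 32 passed.

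**Figure D3:**
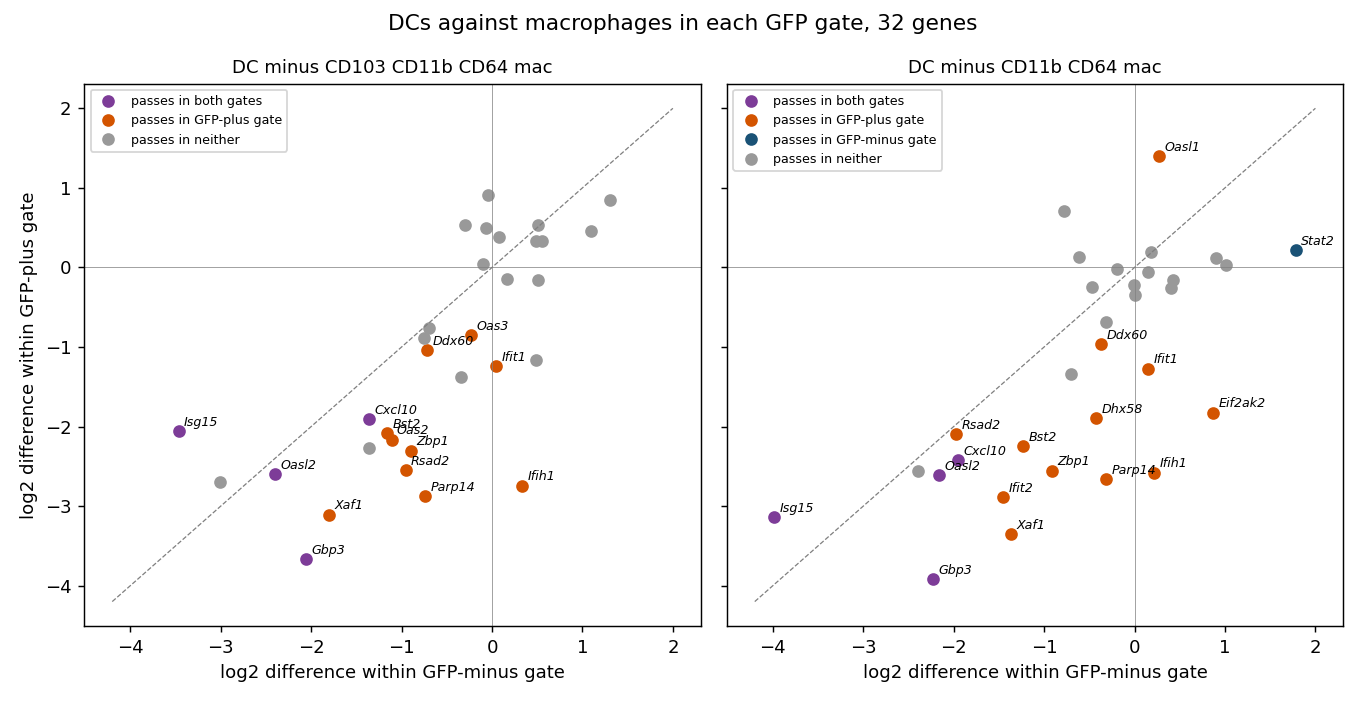
Each point is 1 of the 32 genes, placed by its log2 difference between DCs and a macrophage population within the GFP-minus gate (x axis) and within the GFP-plus gate (y axis), and the dashed line marks equal differences. Isg15, Oasl2, Cxcl10 and Gbp3 pass in both gates, and Ifih1 lies at 0.33 and -2.74 in the left panel.

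The second question was whether phagocytes with GFP differ in these genes from cells of the same population without it. No interferon-stimulated gene passed in any population. In DCs 0 of 32 passed in limma, where 1.58% of all genes did, and 9 had an unadjusted p under 0.05, of which 3 were above 0 and 6 below, beside 5.37% and 10% of all genes. In CD103 CD11b CD64 macrophages 0 passed, where 0.0541% of all genes did, and 9 had an unadjusted p under 0.05, all above 0, beside 5.41% of all genes. In CD11b CD64 macrophages 0 passed, where 0.0271% of all genes did, and 9 had an unadjusted p under 0.05, again all above 0, beside 4.36% of all genes.

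The median difference of the 32 genes, GFP-plus minus GFP-minus, was -0.26 in DCs, 0.11 in CD103 CD11b CD64 macrophages and 0.37 in CD11b CD64 macrophages, beside -0.02, 0.02 and 0.01 over all genes. It was below 0 in 22, 14 and 7 of the 32 genes, beside 52.9%, 47.2% and 48.1% of all genes. The median in DCs was 0.041 after quantile normalization. The median in the macrophages with CD103 was 0.38 without replicate 1 of their GFP-plus group, the array of lowest weight. In the F-test of whether the GFP effect differs between the 3 populations, 0 of 32 passed in limma, where 0.361% of all genes did, and 7 had an unadjusted p under 0.05, where 12.6% of all genes did.

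**Figure D4:**
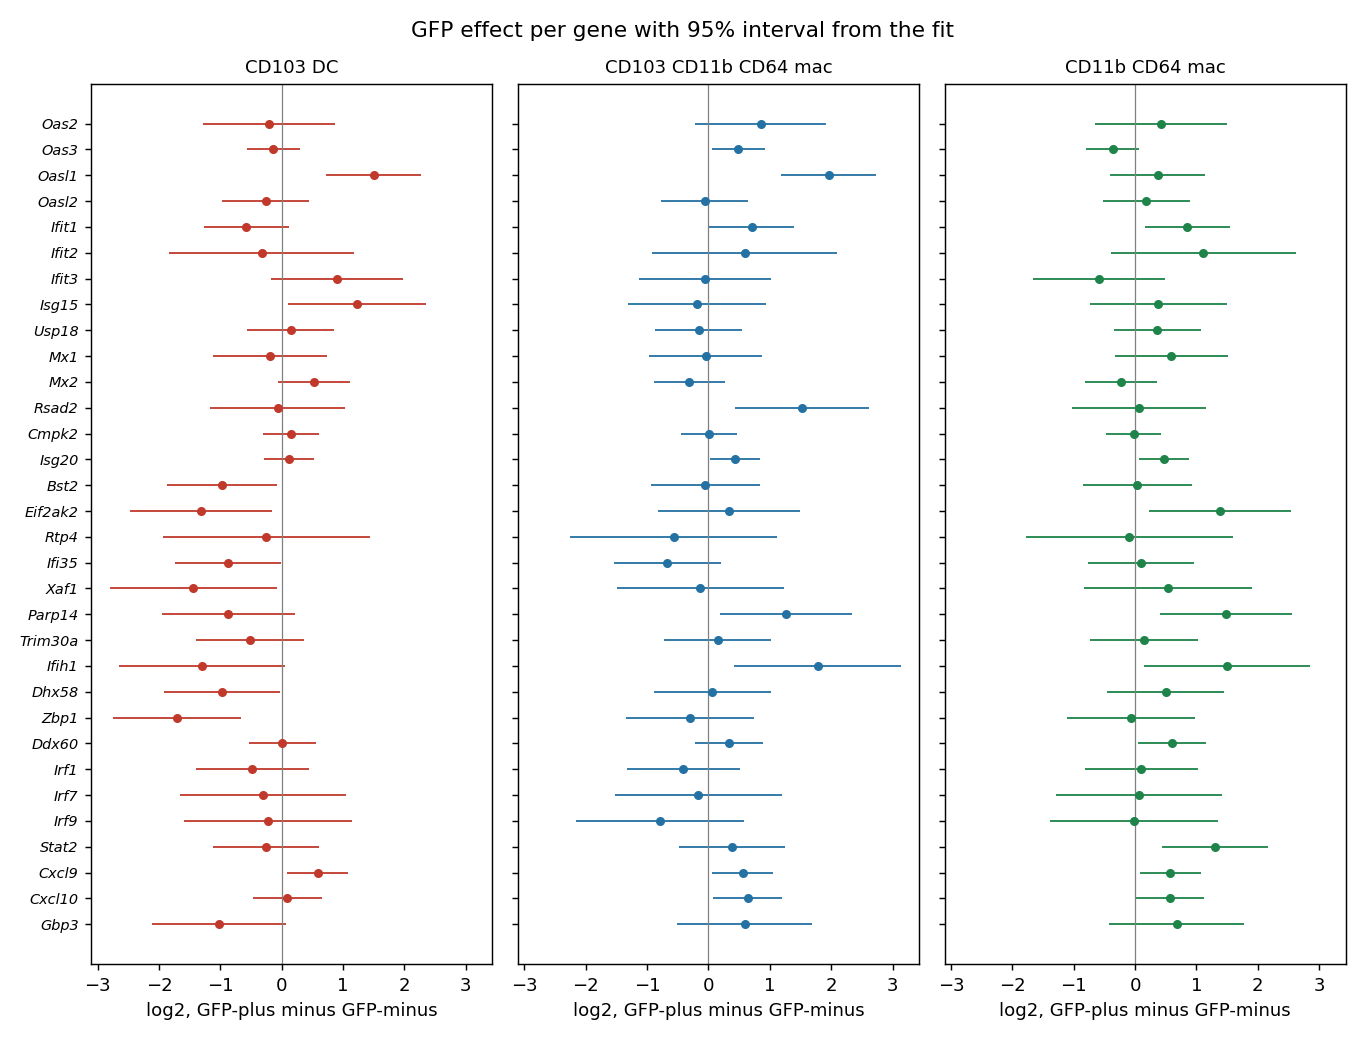
Points give the log2 difference between GFP-plus and GFP-minus cells for each of the 32 genes, with its 95% interval from the fit, in 3 panels for the 3 populations. Oasl1 has the intervals farthest above 0, at 0.73 to 2.27 in DCs and 1.18 to 2.73 in CD103 CD11b CD64 macrophages, and most points are left of 0 in DCs and right of 0 in CD11b CD64 macrophages.

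Oasl1 came nearest to the threshold. With the arrays given above, GFP-plus minus GFP-minus was 1.50 ± 0.36 in DCs (SE, limma adjusted p = 0.0573) and 1.96 ± 0.36 in CD103 CD11b CD64 macrophages (0.0737). In CD11b CD64 macrophages it was 0.37, from -1.33, -0.23 and 0.26 without GFP and -0.19, -0.23 and 0.23 with it. With array weights Oasl1 passed in DCs (limma adjusted p = 0.0404) and in the macrophages with CD103 (0.0398), in DCs also without the 4 arrays of lowest weight (0.00956) and in the macrophages with CD103 also with quantile normalization (0.0333). It also passed in DCs without GFP-plus DC replicate 1 (0.0474), without GFP-plus replicate 1 of the macrophages with CD103 (0.0482) and without GFP-minus replicate 1 or 3 of the CD11b CD64 macrophages (0.0217 and 0.0395). The last 2 omissions also brought it past the threshold in the macrophages with CD103, at limma adjusted p = 0.0362 and 0.0406.

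In DCs the GFP difference of Zbp1 was -1.70 ± 0.49 (SE, limma adjusted p = 0.101), and it was -2.25 and passed without GFP-plus DC replicate 3 (limma adjusted p = 0.0355). Cxcl9 was 0.01, -0.19 and -0.01 in GFP-minus DCs and 0.40, 0.56 and 0.61 in GFP-plus DCs. The sets did not overlap, and the difference was 0.59 ± 0.23 (SE, limma adjusted p = 0.234). The gates did not overlap in 11 of the 32 genes in DCs. Oas2, Ifit1, Eif2ak2, Rtp4, Ifi35, Ifih1, Dhx58 and Zbp1 had every GFP-plus array below, as 11.5% of all genes did, and Oasl1, Mx2 and Cxcl9 had every one above, as 8.66% did.

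In CD103 CD11b CD64 macrophages Rsad2 was -0.50, 0.52 and -1.84 without GFP and 0.04, 1.38 and 1.34 with it. The gates overlapped, and the difference was 1.52 ± 0.51 (SE, limma adjusted p = 0.327). Ifih1 was -1.46, -1.27 and 0.92 without GFP and 1.14, 1.06 and 1.32 with it. The GFP-plus arrays lay close together and above the others, and the difference was 1.78 ± 0.63 (SE, limma adjusted p = 0.367). The gates did not overlap in 7 genes, with Oas2, Oas3, Oasl1, Parp14, Ifih1 and Cxcl10 above, as in 7.54% of all genes, and Mx2 below, as in 5.44%.

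In CD11b CD64 macrophages Stat2 was -1.76, -0.87 and -1.01 without GFP and 0.26, -0.22 and 0.24 with it. The gates were well apart, and the difference was 1.31 ± 0.40 (SE, limma adjusted p = 0.559). Parp14 was -1.22, -0.57 and 0.12 without GFP and 1.07, 0.59 and 1.12 with it, a difference of 1.48 ± 0.50 (SE, limma adjusted p = 0.633). Ifit1 was 0.09, 0.01 and -0.40 without GFP and 0.70, 1.08 and 0.47 with it, a difference of 0.85 ± 0.32 (SE, limma adjusted p = 0.716). The gates did not overlap in 9 genes. Ifit1, Isg20, Eif2ak2, Parp14, Stat2, Cxcl9, Cxcl10 and Gbp3 lay above, as 9.63% of all genes did, and Ifit3 lay below, as 6.24% did.

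The smallest F-test p-values belonged to Ifih1 (limma adjusted p = 0.205), Parp14 (0.227) and Eif2ak2 (0.241). Ifih1 was -1.30 in DCs, 1.78 in CD103 CD11b CD64 macrophages and 1.49 in CD11b CD64 macrophages, as GFP-plus minus GFP-minus. Parp14 was -0.87, 1.27 and 1.48 in the same order, and Eif2ak2 was -1.31, 0.34 and 1.39. In all 3 genes the DC difference was below 0 and both macrophage differences were above it. Without GFP-plus replicate 1 of the macrophages with CD103, 1 gene of the 32 passed the F-test, Ifit1 (limma adjusted p = 0.0376).

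The third comparison set the macrophage populations against each other. No interferon-stimulated gene passed in limma, where 0.0721% of all genes did, and 3 had an unadjusted p under 0.05, where 5.51% of all genes did. Cxcl10 differed by -0.55 ± 0.18 (SE, limma adjusted p = 0.674), macrophages with CD103 minus those without. Irf1, the factor that binds many interferon gamma targets, ran from 0.09 through a median of 0.45 to 1.12 with CD103 and from -0.52 through -0.33 to -0.09 without. Its arrays did not overlap, as in 0.194% of all genes in this direction, and the difference was 0.87 ± 0.30 (SE, limma adjusted p = 0.709). Isg15 differed by -0.80 ± 0.37 (SE, limma adjusted p = 0.891). The median over the 32 genes was -0.11, beside -0.01 over all genes. Oasl2, Isg15, Cxcl10 and Gbp3, all lower in DCs, differed between the macrophages by 0.11, -0.80, -0.55 and -0.21.

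**Figure D5:**
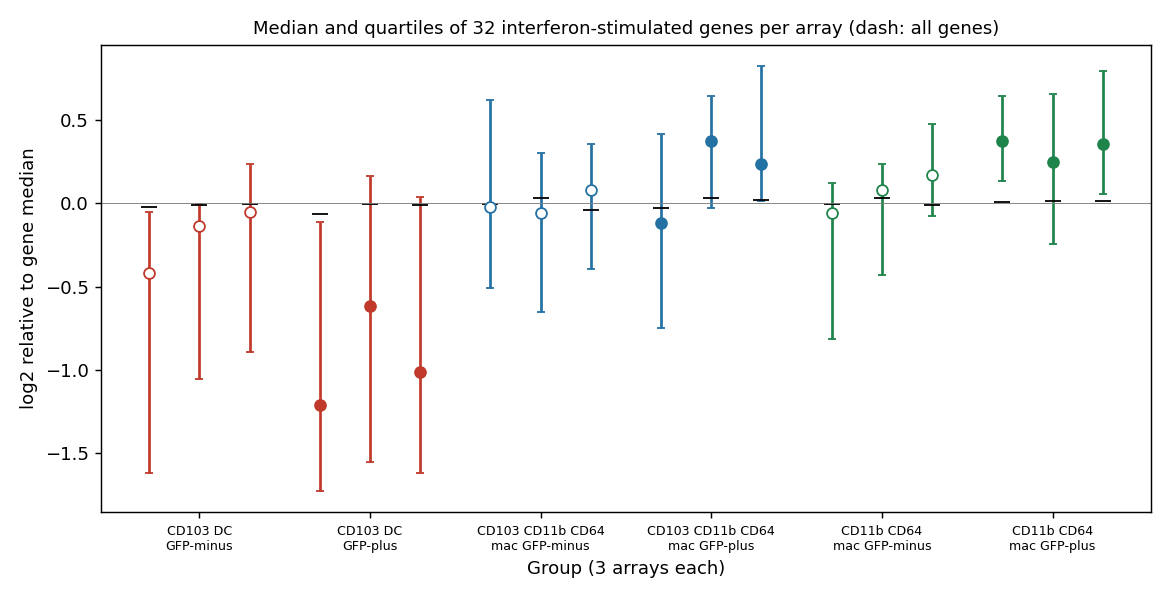
For each array, the point and bar give the median and quartiles of the 32 genes in log2 relative to each gene's median, and the dash gives the median of all 22180 genes. The 6 DC arrays lie at -1.21 to -0.05, the 3 arrays of GFP-plus CD11b CD64 macrophages lie at 0.25 to 0.38, and the dashes stay near 0.

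Replicates of a group varied most in Rtp4, with a pooled standard deviation of 1.04 within groups, and in Ifit2, with 0.93. They varied least in Isg20, with 0.23, Oas3, with 0.25, and Cmpk2, with 0.26. Of the 32 genes, 7 to 13 lay above their own median on each DC array and 14 to 25 on each macrophage array.

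Of the 17 measured interferon ligand genes none passed in limma in any of the 6 comparisons, and their mean per array stayed between -0.05 and 0.32. Among 6 receptor genes, Ifnar2, a chain of the type I receptor, was lower in DCs (-1.77 and -1.56), as was Il10rb (-3.18 and -3.08), the chain shared by the receptors of interleukin 10 and interferon lambda. Ifngr2 was lower than in CD11b CD64 macrophages (-0.55), and Ifngr1 was higher in DCs (0.63 and 0.93), both chains of the interferon gamma receptor. Ifnar1 differed by -0.05 and -0.23 and did not pass. Of 4 kinase and STAT genes with a probe of their own, only Jak2 passed, higher in DCs by 2.82 and 3.40. Of all genes tested, 2.6% and 2.17% were higher in DCs and 5.33% and 5.94% lower.

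Of 15 sensors and adaptors that lead to interferon, 7 were lower in DCs in each comparison, where 5.33% and 5.94% of all genes were. In each, 2 were higher, where 2.6% and 2.17% of all genes were. Tlr7, a sensor of single-stranded RNA, differed by -3.67 and -3.48, and Ikbke, a kinase of IRF3, by -2.72 and -2.44. Tlr3, a sensor of double-stranded RNA, was higher in DCs by 4.08 and 4.06, and Irf8, a factor of the DC lineage, by 1.80 and 1.52. Of 8 genes that limit signalling and sensing, 3 were lower in DCs against the macrophages with CD103 and 2 against those without. Socs3, an inhibitor of cytokine signalling, differed by -2.87 and -2.25, and Pias1, a SUMO ligase gene, by -1.13 and -1.05, while Ptpn6 (-1.53) passed only against the macrophages with CD103.

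Of 42 further interferon-induced genes, 9 were lower in DCs in each comparison, where 5.33% and 5.94% of all genes were. In each, 1 was higher, where 2.6% and 2.17% of all genes were. The named examples are Lgals3bp (-2.60 and -2.67), Lgals9 (-2.95 and -3.47), Ifi27 (-3.67 and -3.75) and Oas1g (-2.87 and -3.45), and the gene that was higher was Ifi205 (3.93 and 3.30). Near-identical copies in the Oas1 and Ifi200 families can share signal on these arrays. Of 12 GTPase genes linked to interferon gamma, 6 and 7 were lower in DCs, among them Gbp8 (-3.79 and -4.12), Gbp7 (-3.21 and -3.52), Gbp9 (-1.71 and -2.30) and Gbp10 (-2.13 and -2.31). In the GFP comparison of DCs, 1 gene of these lists was higher with GFP, Nlrc5 (1.44 ± 0.33, SE, limma adjusted p = 0.0476), a regulator of MHC class I genes, and 1 was lower, Irgm1 (-1.85 ± 0.43, limma adjusted p = 0.0476). Of all genes tested, 1.58% passed in that comparison, so these calls are not read as a result about the lists. Ifi205, Nlrc5 and Irgm1 were named after their values were seen.

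The sort was checked with marker genes. All 11 measured macrophage markers were lower in DCs than in CD103 CD11b CD64 macrophages and 10 of 11 than in CD11b CD64 macrophages, among them Fcgr1, which encodes CD64 (-4.87 and -4.72). Their mean per array was -4.47 to -3.36 in DCs and -0.12 to 0.99 in macrophages. Of 10 DC markers, 6 and 5 were higher in DCs, among them Flt3 (3.95 and 4.17), Xcr1 (4.41 and 4.68) and Itgae, which encodes CD103 (4.49 and 5.68), and 2, Sirpa and Clec10a, were lower. Of all genes tested, 5.33% and 5.94% were lower in DCs and 2.6% and 2.17% were higher. Between the macrophage populations none of the 10 DC markers passed, where 0.0721% of all genes did, and the smallest limma adjusted p was 0.738. Of the 11 macrophage markers 1 passed, higher in the macrophages with CD103 (limma adjusted p = 0.00261). Itgae was 1.19 higher in the macrophages sorted as CD103+ and did not pass. Centred values do not show whether a marker is absent.

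Markers of other cells also moved with the groups. On the arrays of CD103 CD11b CD64 macrophages without GFP, the mean of 10 T and NK cell markers ran from 1.45 to 3.12, against 0.21 to 1.08 in DCs without GFP, -0.51 to -0.16 in DCs with it and at most 0.59 in the other groups. Of these markers 4 were lower in DCs than in the macrophages with CD103, where 5.33% of all genes were. Against the macrophages without CD103, 0 were lower, where 5.94% of all genes were, and 1 was higher, where 2.17% were. Between the macrophage populations 1 was higher in those with CD103 (limma adjusted p = 0.000287), where 0.0721% of all genes passed. The mean of 5 monocyte markers was -0.16 to 1.47 on GFP-minus arrays and -1.38 to -0.43 on GFP-plus arrays, and Plac8 passed, lower with GFP in CD11b CD64 macrophages (-3.62). Of all genes tested, 1.58% passed in the GFP comparison of DCs, 0.0541% in that of CD103 CD11b CD64 macrophages and 0.0271% in that of CD11b CD64 macrophages. Over all the marker lists, 6 other genes passed in a GFP comparison. In DCs the T and NK cell marker Gzma (-3.87), the B cell marker Ighm (-1.999), the macrophage marker C1qa (-1.53) and the neutrophil marker Cxcr2 (-0.58) were lower with GFP, and the Paneth cell marker Defa24 (4.34) was higher. In CD103 CD11b CD64 macrophages the T and NK cell marker Cd7 was lower (-3.61). The mean of 10 enterocyte markers ran from -0.37 to 0.10 on DC arrays without GFP and from 0.28 to 0.63 on those with it, and none passed. That of 8 Paneth and goblet cell markers ran from -0.39 to -0.38 and from 0.45 to 1.20 on the same arrays. Their part in the values of the interferon-stimulated genes was not tested.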

How the data were processed

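The deposited table holds 33793 probes on 18 arrays as log2 values centred on each probe's median. The base and the centring were inferred from the values. Every probe median lay within 5e-07 of 0, and a probe spanned up to 10.148. RNA was amplified from 1 ng with the NuGEN WT Ovation Pico system, per the labels' protocols; no software or normalization is named in the sources used here. Without absolute signal, no filter on dim probes was possible, and the number of arrays limits the precision. Probes with 1 symbol (23521) were averaged per gene; 1814 with several symbols and 8458 with none were left out of tests. Group means were estimated together from all 18 arrays with limma 3.58.1 (R 4.3.3), and two-sided p-values were adjusted by Benjamini-Hochberg over 22180 genes. The scripts were tested on simulated data. Full statistics went to genes passing 0.05 in a comparison or, where fewer than 3 passed, to the 3 of smallest p; from each related list up to 4 genes of smallest p were named. The genes and lists were chosen with earlier results of these data known. Alternatives were normalization, probe choice, array weights, variance shrinkage, the arrays fitted, a replicate block and leaving arrays out. Contrasts within each GFP gate, from the fit of all 18 arrays, were added after the data were seen.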

Additional observations from a re-analysis of the deposited data

Results flagged for a closer look

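In 5 of the 32 genes, every GFP-plus array lay on one side of every GFP-minus array in one population and on the opposite side in another, as in 4.06% of all genes tested. Values are log2, GFP-plus minus GFP-minus, and the difference between the effects was tested by the limma F-test over 3 populations. Ifih1, which encodes the RNA sensor MDA5, was -1.30 in DCs and 1.78 in CD103 CD11b CD64 macrophages (unadjusted p = 0.00684, adjusted p = 0.205). Eif2ak2, the gene for the kinase PKR, was -1.31 in DCs and 1.39 in CD11b CD64 macrophages (unadjusted p = 0.0109, adjusted p = 0.241). Ifit1 was -0.58 in DCs and 0.85 in CD11b CD64 macrophages (unadjusted p = 0.0139, adjusted p = 0.262). Mx2 ran the other way, at 0.53 in DCs and -0.31 in CD103 CD11b CD64 macrophages (unadjusted p = 0.0896, adjusted p = 0.487). Oas2 was -0.20 in DCs and 0.85 in CD103 CD11b CD64 macrophages (unadjusted p = 0.353, adjusted p = 0.726). None of the 5 passed after adjustment over 22180 genes.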

How the results depend on the processing

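No difference that passed changed sign under any alternative run. For DCs against macrophages, 13 of 15 and 11 of 14 calls were kept without each single array. Oas3 and Ifit2, and Dhx58, Ddx60 and Stat2, were lost without some. In every alternative run, contrasts within each GFP gate included, only 4 of 15 and 4 of 14 calls were kept: Oasl2, Isg15, Cxcl10 and Gbp3. Leaving out 1 array gave 13 to 16 and 11 to 15 calls, with medians of -0.87 to -0.64 and -0.66 to -0.50. In the GFP-minus gate 4 and 5 genes passed and the first median was -0.32; in the GFP-plus gate the medians were -1.10 and -1.12. Quantile normalization put the median against CD11b CD64 macrophages at -0.32 and the GFP median in DCs at 0.041. The GFP comparison of DCs had 1 call with array weights and 1 without the 4 arrays of lowest weight, and 0 to 1 on leaving out 1 array (medians -0.32 to -0.17). That of CD103 CD11b CD64 macrophages had 1 call with quantile normalization and 1 with array weights, with medians of 0.34 with array weights and 0.39 without the 4 arrays, and 0 to 1 calls and medians of 0.073 to 0.38 on leaving out 1. That of CD11b CD64 macrophages stayed at 0 calls (medians 0.22 to 0.47), the macrophage pair at 0 (-0.21 to 0.01), and the F-test at 0 to 1. The causes were not tested. Counts over all genes ranged from 48 to 711 in the GFP comparison of DCs, 0 to 95 and 0 to 53 in the macrophages, 805 to 1960 and 731 to 2169 for DCs against macrophages, 3 to 42 between macrophages and 32 to 226 in the F-test. Only 2 of 9 pairs of arrays with the same number correlated over 0.1 (-0.14 to 0.25), so numbers were not taken as pairs. With the replicate block, 17 and 15 genes passed for DCs against macrophages, Dhx58 did not (adjusted p = 0.0534), and no gene passed in the GFP comparisons.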
